A study of Mus musculus with 6 samples.

Results

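The liver of wild-type mice after 24 h without food was compared with the liver of fed wild-type mice. The comparison used 4 of the 6 arrays of the study, the 2 titled as fed wild-type and the 2 titled as fasted wild-type, so its members were chosen by label and by no measured value. All mice were male C57BL/6J of 8 weeks. Fed mice were given normal chow, and fasted mice were kept singly with water and no food. The other 2 arrays hold liver of fasted Cnot3+/- mice of the same age, sex and strain. They entered the fit only through the shared estimate of spread, and no Cnot3+/- mouse was fed. These 2 arrays also counted in the choice of a probe set per gene and of the background level. By title the 2 arrays of each group are biological replicates, and whether an array holds a single mouse or a pool is not stated. Each array measured liver RNA on an Affymetrix mouse expression chip, and each of 18193 genes has a single log2 level per array, so a log2 difference of 1 stands for a 2-fold change. In whole liver, fewer cells of a type and less RNA per cell cannot be told apart.

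The liver stores glucose as glycogen and fat after meals and, without food, releases glucose and ketone bodies made from amino acids, lactate and fatty acids. Fat synthesis, sterol synthesis and the PPARalpha response to fatty acids are the best known parts of that switch. Hepatocytes also secrete most plasma proteins through a large endoplasmic reticulum (ER), oxidise and conjugate steroids, bile acids and foreign compounds, and differ in enzyme content between the portal and the central end of the liver lobule. In male rodents many enzymes of steroid and drug handling depend on the pulses of growth hormone.

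A gene is said to rise or fall where its adjusted p in limma (Benjamini-Hochberg over all genes) was under 0.05. By that rule 913 of 18193 genes changed (5.02%), 340 of them higher after fasting (1.87%) and 573 lower (3.15%). The 4 lists of lipogenesis, cholesterol synthesis, PPARalpha targets and beta oxidation held 53 of the 913 genes, or 5.81%. The other 860 comprised 314 rises and 546 falls. Changes were mostly small, since 526 of the 913 were under 2-fold. The 387 that reached 2-fold were 2.13% of all genes, and 25 rises and 48 falls reached 4-fold. Groups that did not overlap were no sign of a change by themselves, as 50.8% of all genes had them.

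Leaving out arrays changed the number of calls. A kept sign is no check of a call, because a gene passed only where its difference exceeded the gap between replicates. Leaving out an array could hardly reverse such a difference. With fed replicates 1 and 2 left out in turn, 458 and 287 genes passed, and with fasted replicates 1 and 2 left out, 137 and 193. All 913 genes kept their sign in each of these 4 fits, while 513 of them passed in none of them. A change is called stable below where it passed in the fit of all arrays and in each of the 4 others, which held for 114 genes (0.627%), 39 of them higher and 75 lower. Between the 2 fed arrays 163 genes lay at least 2-fold apart, against 72 between the 2 fasted wild-type arrays. A level at or under 5.64, the highest median of any array, was not shown to be above background. A difference from such a level is a lower bound.

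**Figure D1:**
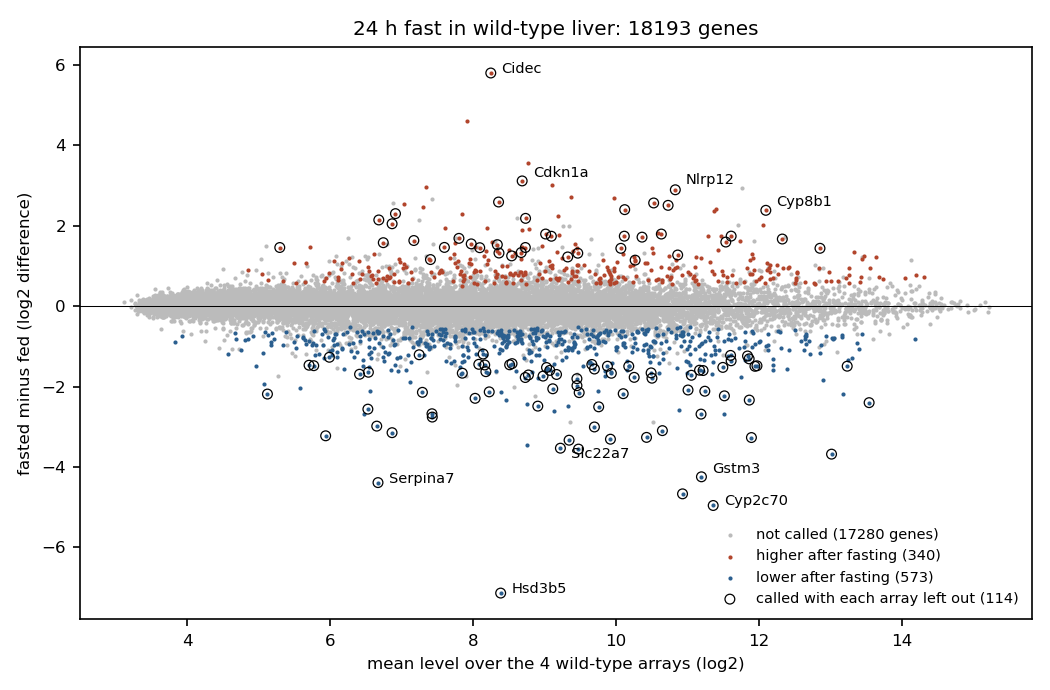
Log2 difference between fasted and fed wild-type liver for each of 18193 genes, against the mean log2 level over the 4 wild-type arrays. Red points are the 340 genes that rose, blue points the 573 that fell, and rings mark the 114 genes that passed with any array left out. Falls reach further from 0 than rises, and few dim genes are coloured.

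Calls were spread unevenly over the range of levels. A list of bright genes can thus exceed the 5.02% over all genes through its level alone. With the genes divided by mean level into 5 classes of equal size, 0.110% of the dimmest class passed, and 1.43%, 4.97%, 7.61% and 10.96% of the classes above it. Of the 913 genes, 831 were above background in both states, 15 rose from a level not shown to be above background and 50 fell to such a level. A second probe set was available for 505 changed genes and had the same sign in 452 (89.5%). That share was 94.7% where the second probe set was above background and 74.4% where it was not. Among genes that did not pass, 63.6% had a second probe set of the same sign.

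Many of the large stable falls outside the lipid lists, among genes above background in both states, were those of enzymes and transporters of the hepatocyte. Cyp2c70, which makes the muricholic acids typical of mouse bile, read 13.87 and 13.82 on the fed arrays and 8.74 and 9.03 on the fasted arrays. Both fasted values lay far below both fed values, and the log2 difference was -4.96 (SE 0.23, limma adjusted p = 0.000253). Gstm3, a glutathione S-transferase, read 13.46 and 13.18 when fed and 8.49 and 9.67 when fasted, a difference of -4.24 (SE 0.37, adjusted p = 0.00307). The fasted values of Gstm3 were more than 1 log2 unit apart, yet neither came near a fed value. Slc22a7, an organic anion transporter also known as OAT2, read 10.50 and 11.48 when fed and 7.46 on both fasted arrays (difference -3.53, SE 0.28, adjusted p = 0.00254). Here it was the fed arrays that differed. Slc22a30, of the same transporter family, fell by 3.10, and Slco1a1, which takes up bile acids and steroid conjugates, by 2.12. Sucnr1, the receptor for succinate, fell by 2.50 and Car3, a carbonic anhydrase abundant in male rodent liver, by 2.40 (adjusted p = 0.0538 with the mean over its probe sets). Ptgr1 and Cyp4f14, which inactivate leukotriene B4, fell by 2.68 and 2.69.

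Other stable falls were in genes with no evident link to metabolism. Wdr6, a partner of a tRNA methyltransferase, read 9.39 and 8.96 when fed and 6.70 and 7.07 when fasted (difference -2.29, SE 0.19, adjusted p = 0.00254), with -0.93 on its second probe set. Prg4, which encodes the lubricant glycoprotein of joints, fell by 2.18. Dct, an enzyme of melanin synthesis, read 9.10 and 9.49 when fed and 7.39 and 6.93 when fasted, a difference of -2.13 (SE 0.24). The serpin pseudogene Serpina4-ps1 fell by 3.56 and the acetyltransferase gene Nat8f1 by 2.09. Nxpe2 fell by 2.76 on its brighter probe set, and its second was not above background.

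The largest stable rise outside the lipid lists was that of Cdkn1a, which encodes the cyclin-dependent kinase inhibitor p21. It read 7.38 and 6.89 when fed and 10.27 and 10.23 when fasted (difference 3.12, SE 0.18, adjusted p = 0.00071). On the second probe set of Cdkn1a, also above background, the difference was 1.26. Nlrp12, a NOD-like receptor of innate immunity, read 8.94 and 9.83 when fed and 12.19 and 12.37 when fasted, a difference of 2.90 (SE 0.27, adjusted p = 0.00341). On the brighter probe set, all fasted values of both genes lay above all fed values by at least 2 log2 units. Krt23, an epithelial keratin, rose by 2.59 from 6.86 and 7.27 to 9.75 and 9.57. It was the only one of 44 measured keratins that passed, and only 15 of the 44 were above background in either state. Cyp8b1, the sterol 12-alpha-hydroxylase that commits bile acid synthesis to cholic acid, read 10.85 and 10.97 when fed and 13.20 and 13.38 when fasted (difference 2.38, SE 0.13).

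The remaining stable rises were of mixed function. Cox6b2, a form of a cytochrome oxidase subunit known from testis, rose by 2.05, and Chrna2, a nicotinic acetylcholine receptor subunit, by 1.63. St3gal5, which makes the ganglioside GM3, read 10.90 and 10.59 when fed and 12.51 and 12.46 when fasted (difference 1.74, SE 0.15, adjusted p = 0.00269). Slc25a22, a mitochondrial glutamate carrier, read 10.74 and 10.75 when fed and 12.28 and 12.40 when fasted (1.60, SE 0.12, adjusted p = 0.00197). For Slc25a22 the replicates lay close together in both states, while those of St3gal5 did so only after fasting. Insig2, which holds the sterol sensor SCAP in the ER, rose by 1.67, Fbxo31, a ubiquitin ligase subunit, by 1.72 and the flavin monooxygenase Fmo2 by 1.79. The triglyceride lipase Pnpla2 rose by 1.79 on its brighter probe set, which is shared between transcripts. Its second probe set was not above background.

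**Figure D2:**
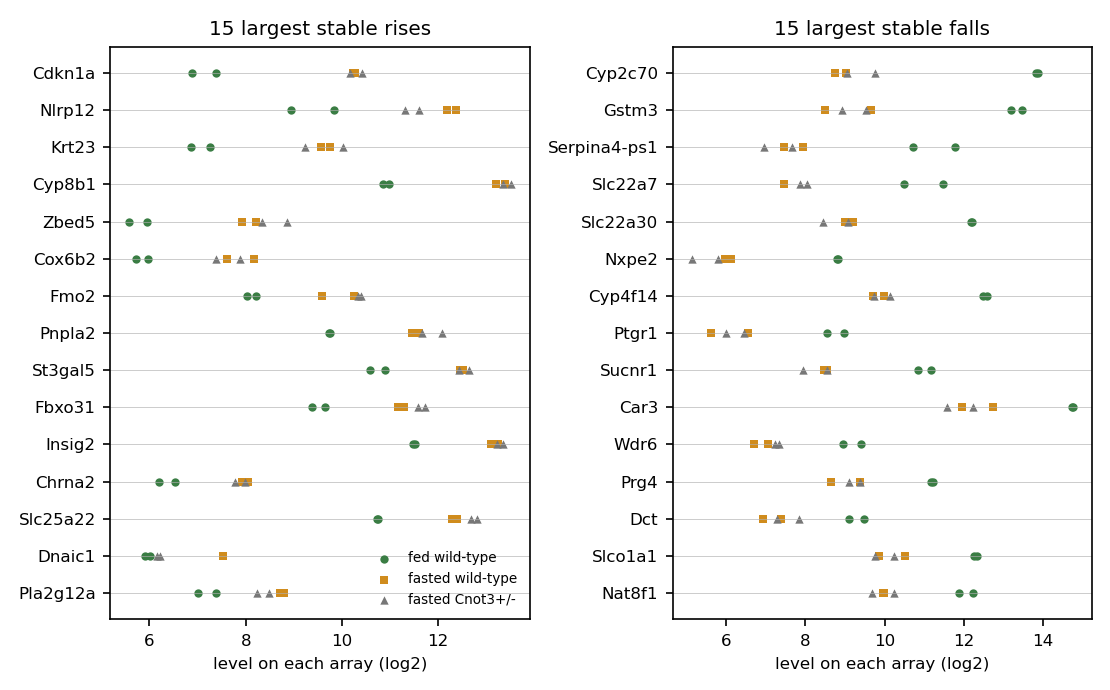
Log2 level on each array for the 15 largest stable rises (left) and falls (right) outside the 4 lipid lists, among genes above background in both states. Circles are fed wild-type, squares fasted wild-type and triangles fasted Cnot3+/- arrays. Fed and fasted wild-type points are apart in every row, as by Cdkn1a at 7.38 and 6.89 against 10.27 and 10.23, and the Cnot3+/- arrays lie beside the fed arrays only for Dnaic1.

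Some genes crossed the background. Serpina7, the thyroxine-binding globulin, read 8.88 and 8.85 when fed and 4.19 and 4.76 when fasted, so that it fell by at least 4.39 (SE 0.31, adjusted p = 0.00169). Cnmd, which encodes chondromodulin, read 8.59 and 8.30 when fed and 5.24 and 5.35 when fasted, a fall of at least 3.15 (adjusted p = 0.000252). The kinase gene Dclk3 and the P450 gene Cyp2c55 fell by at least 2.56 and 2.98. Fewer genes rose out of the background. Pla2g7, the secreted enzyme that breaks down platelet-activating factor, read 5.40 and 5.82 when fed and 7.67 and 7.84 when fasted, a rise of at least 2.14 (SE 0.17, adjusted p = 0.00227). These 5 changes were stable. The nesfatin precursor Nucb2 fell by at least 2.69 (adjusted p = 0.0134), but its adjusted p reached 0.0749 with an array left out.

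Proteins that carry hormones in plasma were among the genes with the largest falls. Serpina6, the corticosteroid-binding globulin, read 12.83 and 12.90 when fed and 10.17 and 10.19 when fasted, a log2 difference of -2.69 (SE 0.29, adjusted p = 0.00466; 0.0515 in the weakest fit with an array left out). It and Serpina7 bind different hormones and belong to the same protease inhibitor family, in which 4 of 40 measured members fell and 1 rose. Serpinh1, the collagen chaperone, fell by 1.37. Serpina3n, an acute phase inhibitor, rose by 1.29 from 11.20 and 11.31 to 12.60 and 12.50. The median log2 difference of the 40 serpins was -0.06, against 0.02 over all genes. Ttr, or transthyretin, another thyroxine carrier, read 15.06 on both fed arrays and 14.99 and 14.93 on the fasted arrays.

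Steroid-handling enzymes fell in part. Of 32 measured hydroxysteroid dehydrogenases and aldo-keto reductases, 6 fell and 2 rose, with a median of -0.15. Hsd3b5, Hsd3b2 and Hsd3b3 are adjacent measured genes in a cluster on chromosome 3 and all fell. Hsd3b5 read 11.84 and 12.08 when fed and 5.17 and 4.47 when fasted, Hsd3b2 read 9.33 and 9.58 against 7.42 and 7.24, and Hsd3b3 read 12.55 and 12.49 against 11.06 and 11.36. The groups of all 3 were far apart, by at least 7.14 (adjusted p = 9.63e-05), by 2.12 (adjusted p = 0.0296) and by 1.31 (adjusted p = 0.00445). These paralogs are alike in sequence and their probe sets may read each other, and on the unshared probe set of Hsd3b3 the difference was -1.86 (adjusted p = 0.0834). Akr1d1, which reduces the steroid ring in bile acid synthesis, fell by 1.19 (adjusted p = 0.01, and 0.0563 with the mean over its probe sets), and Akr1c14 and Akr1c20 by 1.10 and 1.72. Hsd17b13, a lipid droplet dehydrogenase, rose by 0.70. With single arrays left out, 4, 4, 3 and 3 of the 6 falls passed (without fed replicates 1 and 2 and fasted replicates 1 and 2), and neither of the rises did.

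Glutathione S-transferases, which conjugate electrophiles to glutathione, had the highest share of falls among the lists of at least 10 genes outside the 4 lipid lists. Of 23 measured members 10 fell and 1 rose (47.8% changed), and the median was -0.61, between -0.72 and -0.27 with an array left out and nearest 0 without fasted replicate 1. Of the falls, 5 were in the mu class, and Gstm7, Gstm6, Gstm3 and Gstm2 lie next to each other on chromosome 3. Gstm2 read 11.19 and 11.09 when fed and 9.31 and 9.43 when fasted (difference -1.77, SE 0.12, adjusted p = 0.00131). Its replicates lay close together in both states. Gsta4, which clears lipid aldehydes, fell by 1.60 from 11.89 and 12.15 to 10.30 and 10.54, and Gstp3 by 1.09. The member that rose was Gsto1 (0.62, adjusted p = 0.0492). Between 5 and 6 members fell and none rose with any array left out. Mu class members share much of their sequence, and on its probe set that is not shared between transcripts Gstm3 fell by 2.89.

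Cytochrome P450 genes of families 1 to 3 moved less as a group. Of 43 measured members 8 fell and 1 rose (20.9% changed, median -0.17). Cyp1a2, which oxidises caffeine and arylamines, read 13.83 and 13.82 when fed and 12.19 and 11.77 when fasted (difference -1.84, SE 0.25, adjusted p = 0.0106). Cyp2c29 fell by 1.33 and Cyp2r1, a vitamin D 25-hydroxylase, by 1.52. Cyp2c39, of the same subfamily as Cyp2c70, rose by 1.46 from 7.05 and 6.69 to 8.34 and 8.33. Neighbouring subfamily members thus changed in opposite directions. With single arrays left out, 3 or 4 members fell and Cyp2c39 rose in every fit. Cyp1a2, Cyp2c29 and Cyp2r1 did not hold in all of these fits, with adjusted p values up to 0.0766, 0.117 and 0.0644. Among carboxylesterases, which cleave ester drugs and lipids, 3 of 13 fell, Ces2b by at least 2.19, Ces1g by 1.66 and Ces2g by 1.49. No UDP-glucuronosyltransferase of 10 and no sulfotransferase of 13 passed in limma, and 4 of each had an unadjusted p under 0.05.

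Membrane transport changed in both directions. Of 41 organic ion transporters 6 fell and 2 rose (19.5% changed). The share changed was 5.02% over all genes and 10.96% in the brightest class. Slc22a27, Slc22a29 and Slc22a30 lie next to each other on chromosome 19 and were all called lower. Slc22a27 and Slc22a29 were not shown to be above background in either state, so only the fall of Slc22a30, from 12.18 and 12.22 to 9.20 and 9.01, has a size. Of 45 ABC transporters 5 fell and 2 rose (15.6% changed). Abcb11, which pumps bile salts into bile, read 12.44 and 12.51 when fed and 11.21 and 11.07 when fasted (difference -1.34, SE 0.18, adjusted p = 0.0106). Abcb4, which moves phosphatidylcholine into bile, went the other way, from 12.05 and 12.18 to 12.91 and 13.03 (0.86, SE 0.12, adjusted p = 0.0114). Fed and fasted levels of both canalicular pumps stood apart by more than their replicates differed. Their adjusted p rose to 0.0799 and 0.0898 with an array left out. Aqp8, a water channel of the canalicular membrane, read 10.30 and 10.83 when fed and 7.51 and 8.67 when fasted (-2.48, SE 0.41, adjusted p = 0.0201). It was the only one of 11 aquaporins that passed (9.09%), and its fall was not stable. Slc3a1, a subunit of the cystine transporter, fell by 2.06, and stably so. Slc16a5, a monocarboxylate transporter, rose by 1.91, with fed values of 7.31 and 8.36 and an adjusted p up to 0.119 with an array left out.

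Of 22 measured genes of vitamin A storage, activation and breakdown 6 fell and 2 rose (36.4% changed, median -0.17). Cyp26a1, which degrades retinoic acid, read 11.001 and 9.96 when fed and 7.27 and 6.79 when fasted, a difference of -3.45 (SE 0.45, adjusted p = 0.00872). The fed arrays were 1 log2 unit apart, but both were above both fasted arrays. Rarb, a retinoic acid receptor, fell by 0.52. Lrat, which esterifies retinol for storage in stellate cells, fell from 8.74 and 8.55 to 7.50 and 7.38 (-1.20, SE 0.13, adjusted p = 0.00497). The retinol dehydrogenases Rdh11 and Rdh5 fell by 1.67 and 0.82 and the aldehyde dehydrogenase Aldh1a7 by 0.91. Retsat, which saturates retinol, and Dhrs4, a retinal reductase, rose by 0.77 and 0.84. None of the 8 changes was stable: 2 falls passed without either fed array, 1 without either fasted array, and no rise passed in those fits.

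The path of newly made secretory proteins into the ER was lower at several steps. A list of 50 measured genes for signal recognition, translocation and vesicle transport held 15 falls and 2 rises (34.0% changed), with a median of -0.24. The share changed was 5.02% over all genes and 10.96% in the brightest class. By role, 6 of 8 translocon genes fell, as did 3 of 5 signal peptidase subunits and 4 of 6 oligosaccharyltransferase subunits, which attach N-linked sugars. None of 7 genes of the signal recognition particle and its receptor and none of 10 COPI genes passed, while COPII genes divided into 2 rises and 2 falls among 14. Of the COPI genes, Kdelr3 and Tmed2 were not shown to be above background in either state, which left little room for a call. The roles were assigned after the values were seen, from what the proteins are known to do.

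Sec61b, a subunit of the channel itself, read 12.42 and 12.50 when fed and 11.09 and 11.36 when fasted (difference -1.24, SE 0.13, adjusted p = 0.00456), and its fall was stable. Sec61a1, which forms the pore, read 12.52 and 12.68 when fed and 11.57 and 11.64 when fasted (SE of the difference 0.12, adjusted p = 0.00644). Ssr1, of the translocon-associated complex, read 11.68 and 11.66 against 10.67 and 10.68. In each of these genes both fasted arrays lay about 1 log2 unit under both fed arrays. Spcs3, a signal peptidase subunit, fell by 1.16 and Stt3a, the catalytic subunit of an oligosaccharyltransferase, by 1.03. Sec23b, a COPII coat protein, fell by 1.16 while its paralog Sec23a rose by 0.57. Sec23a read 11.40 and 11.39 when fed and 11.96 and 11.97 when fasted, while Sec23b read 10.996 and 11.06 when fed and 9.72 and 10.02 when fasted. The cargo receptor Lman1 fell by 0.73, and Sec16b, which organises ER exit sites, rose by 0.71.

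The number of falls in the list of 50 was 6 and 4 with fed replicates 1 and 2 left out in turn, 1 and 3 with fasted replicates 1 and 2 left out, and no rise passed in those fits. The medians of the translocon genes in the same fits lay between -0.87 and -0.76. Without shared probe sets 10 of 43 measured genes of the list fell and 2 rose, with a median of -0.16. With the mean over probe sets 15 of 50 fell and 2 rose, with a median of -0.19. On the probe set not shared between transcripts, Rpn1, an oligosaccharyltransferase subunit, differed by -0.01 and did not pass, and that of Sec11c was not above background.

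**Figure D3:**
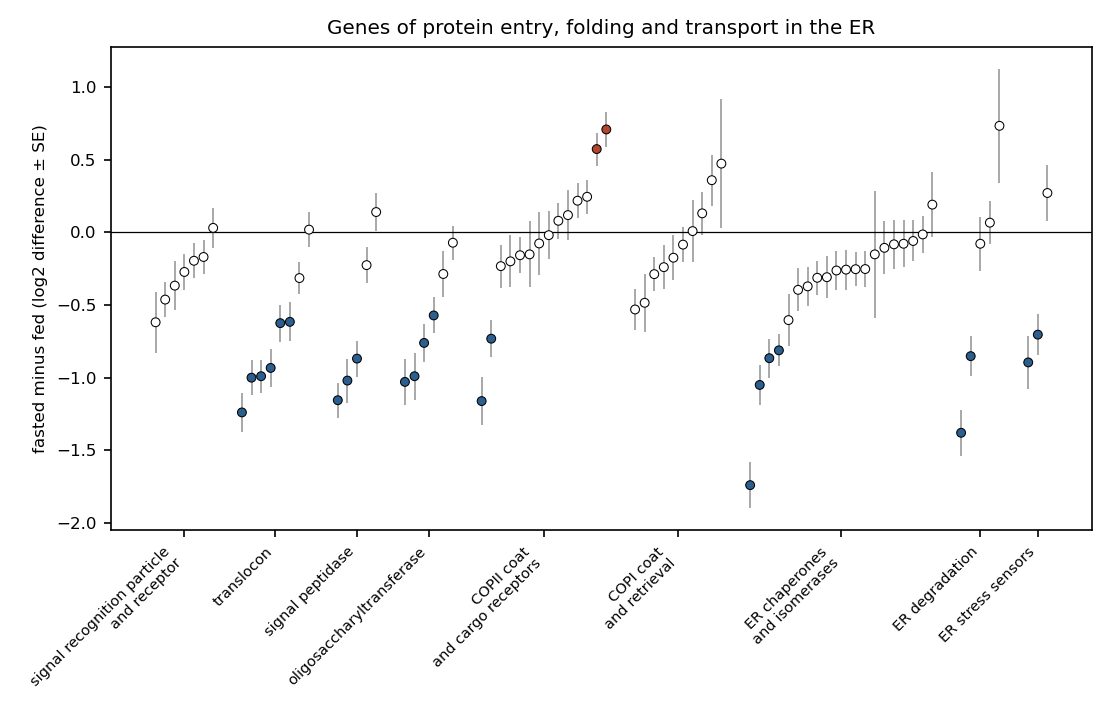
Log2 difference (fasted minus fed, bars ± SE) of 78 genes for protein entry into the ER, folding and vesicle transport, ordered within each role. Blue points fell, red points rose and white points did not pass. The 6 translocon genes that fell lie between -1.24 and -0.62, while all 10 COPI genes are white. Among these, Kdelr3 and Tmed2 were not shown to be above background.

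Folding factors inside the ER moved unequally. Of 28 measured chaperones, isomerases, degradation factors and stress sensors 8 fell and none rose (28.6% changed, median -0.26). With the mean over probe sets 5 fell (median -0.18), and without shared probe sets 9 of 24 fell (median -0.29). Sdf2l1, part of a large ER chaperone complex, read 9.67 and 10.03 when fed and 8.11 on both fasted arrays, a stable difference of -1.74 (SE 0.16, adjusted p = 0.00308). Edem2 and Edem1, which direct misfolded glycoproteins to degradation, fell by 1.38 and 0.85, the oxidase Ero1b by 1.05, the isomerases Pdia6 and Ppib by 0.87 and 0.81, and the stress sensors Ern1 and Atf6 by 0.89 and 0.70. Second probe sets above background differed by 0.07 for Ern1 and 0.26 for Atf6, so those falls rest on 1 probe set each. Hspa5, the main ER chaperone BiP, read 13.49 and 13.50 when fed and 13.61 and 13.35 when fasted, and Hsp90b1, the ER form of Hsp90, 13.30 and 13.31 against 13.38 and 13.10. Fed and fasted arrays overlapped for both. The differences of Hspa5 and Hsp90b1 were -0.02 (adjusted p = 0.970) and -0.06 (adjusted p = 0.883). The number of falls was 5, 2, 1 and 2 with fed replicates 1 and 2 and fasted replicates 1 and 2 left out, and 1 gene rose without fed replicate 1.

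The promoters of ER folding genes are known for the ER stress element, a CCAAT box followed after 9 bases by CCACG, which is bound by the sensor ATF6 and a CCAAT-binding factor. In the RefSeq window from 250 bases before to 50 bases after the start (GRCm38.p6), searched on both strands for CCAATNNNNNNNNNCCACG, 9 of 25 promoters of this list held it (36.0%), against 0.132% of 14368 promoters of all measured genes. None of 40 promoters of the entry and transport list held it. Among the 9 genes with the element 2 fell, with a median difference of -0.31, and among the 16 without it 5 fell, with a median of -0.26. The stretches below show genes with this element that fell (Ero1b and Pdia6) and others with it that did not pass (Hspa5, Dnajc3 and Creld2), with the element in capitals, in the direction of the gene. For Sdf2l1, which fell furthest and lacks it, capitals mark the CCAAT boxes, on either strand.
Ero1b, chr13:12565662-12565720, + strand: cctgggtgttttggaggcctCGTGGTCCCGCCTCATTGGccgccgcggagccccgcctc
Pdia6, chr12:17266471-17266529, + strand: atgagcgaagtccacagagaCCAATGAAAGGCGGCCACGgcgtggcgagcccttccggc
Hspa5, chr2:34772005-34772063, + strand: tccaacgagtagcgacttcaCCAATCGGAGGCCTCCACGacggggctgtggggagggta
Dnajc3, chr14:118937807-118937865, + strand: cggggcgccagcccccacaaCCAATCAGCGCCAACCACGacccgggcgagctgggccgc
Creld2, chr15:88819500-88819558, + strand: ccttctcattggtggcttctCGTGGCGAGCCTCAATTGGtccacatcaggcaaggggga
Sdf2l1, chr16:17132385-17132571, - strand: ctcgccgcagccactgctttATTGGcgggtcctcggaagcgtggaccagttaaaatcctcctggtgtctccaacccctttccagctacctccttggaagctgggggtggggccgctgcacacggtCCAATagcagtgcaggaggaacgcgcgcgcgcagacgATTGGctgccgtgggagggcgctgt
The element lies 201 bases before the start in Ero1b, 98 in Pdia6, 65 in Hspa5, 105 in Dnajc3 and 126 in Creld2. Dnajc3, an inhibitor of the stress kinase PERK, differed by -0.37 and Creld2 by -0.15, without passing. A match is a description of these letters and shows no binding, and the search for this element was added after the data were seen.

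Promoters of the genes with the largest changes were poor in CpG. The median ratio of observed to expected CpG was 0.402 for the 36 promoters of genes lower by at least 4-fold and 0.395 for the 18 of genes higher by at least 4-fold, against 0.675 over all 14368. A TATAAA sequence was present in 22.2% of the former promoters, in 11.1% of the latter and in 9.86% of all. Among all genes that fell and all that rose, 8.58% and 7.72% of promoters held it. These lists were defined by the size of the change, so the values are a description.

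Blood proteins and intermediary metabolism held scattered changes. The share changed was 12.9% for complement and coagulation, 13.8% for methionine, one-carbon and glutathione, and 21.4% for pentose phosphate and NADPH. It was 10.0% for the TCA cycle list and 11.4% for Slc25 carriers, against 5.02% of all genes and 10.96% of the brightest class. Of 31 complement and coagulation genes 3 fell and 1 rose. F11, clotting factor XI, read 11.49 and 11.32 when fed and 9.72 and 9.50 when fasted, a stable difference of -1.79 (SE 0.14, adjusted p = 0.00208). Mbl2, a mannose-binding lectin, and Masp1, its protease, fell by 0.82 and 0.92. Gamt, which makes creatine, fell by 1.59 from 11.87 and 12.07 to 10.16 and 10.59, a stable change. Csad, of taurine synthesis, rose by 1.46 and Mat1a, which makes S-adenosylmethionine, by 0.74. Tkt, Pgd and Idh1, of the pentose phosphate path and NADPH supply, fell by 1.03, 1.25 and 0.70 and were the changed genes among 14. Among 20 TCA cycle and anaplerosis genes Fh1, or fumarase, and Pcx, pyruvate carboxylase, rose by 0.63 and 0.56. Of 44 mitochondrial carriers of the Slc25 family 4 rose and 1 fell, among them Slc25a47 with a rise of 1.21 from 13.35 and 12.72 to 14.11 and 14.38, and the ATP-Mg/phosphate carrier Slc25a23 with a fall of 1.41. Apart from F11, Gamt and Slc25a22, none of these changes was stable, with adjusted p values from 0.0794 to 0.238 in the weakest of the 4 fits.

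Genes of the lobule's ends were also counted. Of 22 pericentral genes 5 fell and 1 rose, with a median of -0.44, and of 17 periportal genes 3 rose and 1 fell, with a median of 0.20. The pericentral median was -0.67 and -0.22 with fed replicates 1 and 2 left out in turn, -0.27 with fasted replicate 2 left out and -0.16 with the mean over probe sets. The periportal median was 0.11 without fasted replicate 1 and 0.34 without fasted replicate 2. The pericentral falls were Gstm3, Cyp1a2, Cyp2c29, the secreted Lect2 (-1.69) and the calcium-binding Rgn (-1.29), and the rise was that of the nuclear receptor Nr1i3 (0.86). The periportal rises were Asl of the urea cycle (0.70), Etnppl (1.08, and 0.29 on its second probe set) and Hsd17b13, and the fall was that of Cdh1, or E-cadherin, from 10.29 and 10.73 to 9.46 and 9.55. Several of these genes were also counted in other families above. With single arrays left out the pericentral falls numbered 3, 1, 1 and 3 and the periportal rises 1, 0, 0 and 0, in the order of fed and fasted replicates 1 and 2. The difference between the lists was not tested.

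Of 20 measured genes of growth hormone and JAK-STAT signalling 3 fell and 1 rose, with a median of -0.07. With single arrays left out between 0 and 2 fell and none rose. Ghr, the growth hormone receptor, read 13.39 and 13.32 when fed and 12.48 and 12.31 when fasted (difference -0.96, SE 0.16, adjusted p = 0.021), and differed by -0.43 on its second probe set. Both probe sets are shared between transcripts. Cish, a feedback inhibitor induced by STAT5, read 9.08 and 8.27 when fed and 6.90 and 7.07 when fasted (-1.69, SE 0.27, adjusted p = 0.0185). Bcl6, a repressor that growth hormone lowers, went up from 7.89 and 7.59 to 9.75 and 9.51 (1.89, SE 0.32, adjusted p = 0.021). Groups did not overlap for any of the 3, and none was stable, with adjusted p values up to 0.136, 0.133 and 0.145. Lifr, the receptor of leukaemia inhibitory factor, fell by 1.40 and by 0.40 on its unshared probe set, which did not pass. Adra1b, an adrenergic receptor, and Pde4b, which breaks down cAMP, fell by 0.73 and 1.90. Igfbp2, an IGF-binding protein, rose by 0.94 from 13.08 and 13.10 to 14.03 and 14.04. Nr0b2, the receptor SHP that represses bile acid synthesis, rose by 1.07 beside the rise of Cyp8b1. Klf11 rose by 1.13, Atf5 by 1.11 and the liver factor Creb3l3 by 0.96. None of the changes named from Lifr to Creb3l3 was stable. No gene of 54 in Wnt signalling or of 28 in TGF-beta and BMP signalling passed in limma, with 3 and 7 at an unadjusted p under 0.05.

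Of 20 measured clock genes 2 passed. Ciart, a repressor of the clock, rose by 1.37 (adjusted p = 0.04) and Bhlhe40 fell by 1.10 (adjusted p = 0.0459). With the 4 wild-type arrays alone both had adjusted p values above the threshold, 0.0537 and 0.0576. Neither was stable. Ciart read 8.07 and 7.23 when fed and 9.28 and 8.76 when fasted. Per1, an early-response period gene, read 8.69 and 7.09 when fed and 9.01 and 8.82 when fasted, and Nr1d1, or Rev-erb alpha, 8.20 and 7.15 against 7.77 and 7.79. For Per1 the 2 fed arrays were further apart than the nearer fed array was from the fasted arrays, and for Nr1d1 the fasted values lay between the fed ones. Arntl, or Bmal1, read 7.14 and 7.99 when fed and 7.53 and 7.80 when fasted, and Dbp 10.92 and 10.30 against 10.57 and 10.12. Their differences of 0.10 and -0.27 were within the spread of the fed arrays. The labels used here give no time of day of sampling.

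Some of the best known fasting genes did not pass, and their fed arrays lay far apart. Igfbp1, an insulin-repressed binding protein, Pck1 of gluconeogenesis, Zbtb16, a transcriptional repressor, and Lpin1, a phosphatidate phosphatase and coactivator, were high on fed replicate 1 and low on fed replicate 2. Zbtb16 read 10.22 and 7.20 when fed and 10.05 and 10.08 when fasted, and Lpin1 read 13.02 and 10.08 against 12.54 and 12.38. Fasted values were close to fed replicate 1 for both. G0s2, which inhibits the lipase encoded by Pnpla2, had the reverse order, at 9.60 and 12.63 when fed and 12.67 and 12.82 when fasted. Angptl8, a hormone made after feeding, read 9.25 and 12.35 when fed and 8.05 and 7.80 when fasted. Of the 163 genes at least 2-fold apart between the fed arrays, fed replicate 1 was nearer to the fasted mean in 102 and fed replicate 2 in 61, and 15 passed. Of 115 genes at least 2-fold different between the states that did not pass, 37 were at least 2-fold apart between the fed arrays and 16 between the fasted arrays.

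**Figure D4:**
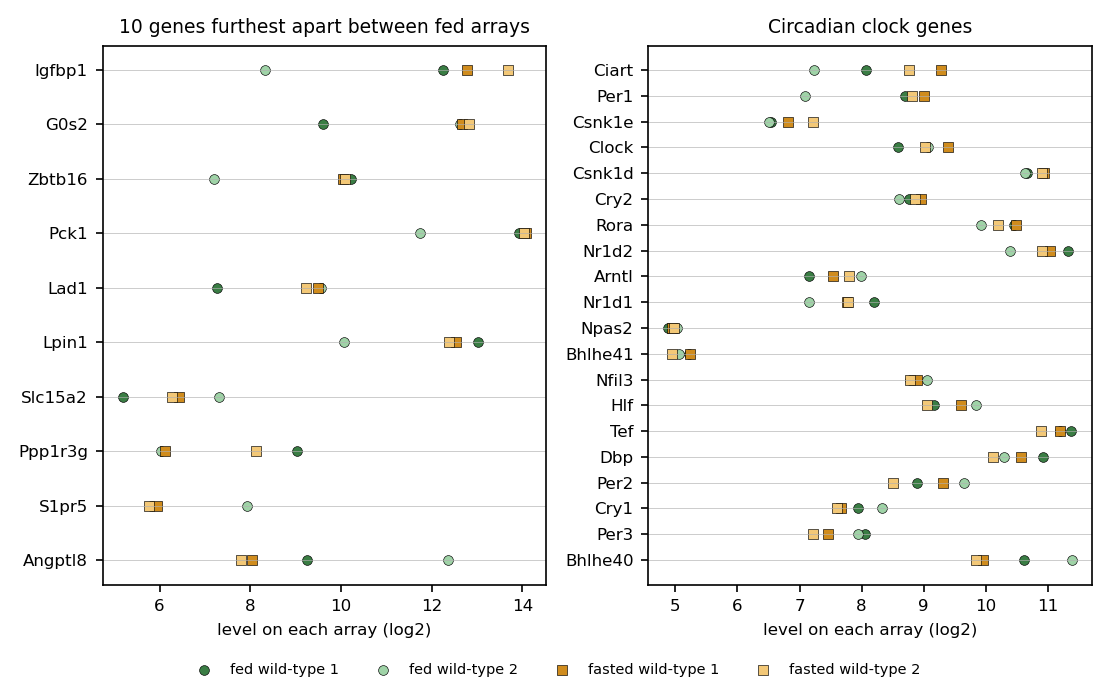
Log2 level on each wild-type array of the 10 genes furthest apart between the fed arrays (left) and of 20 circadian clock genes (right). Dark and light circles are fed replicates 1 and 2, dark and light squares fasted replicates 1 and 2. Igfbp1 lies at 12.26 and 8.33 on the fed arrays. Fed and fasted points overlap for some clock genes, such as Arntl, Clock and Dbp, but not for others, such as Ciart and Bhlhe40.

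Growth and RNA handling changed at single genes more than as groups. The share changed was 10.8% of replication factors, 5.13% of RNA polymerase and nucleolar factors and 4.26% of translation initiation factors. Over all genes it was 5.02%. Of 37 replication factors 4 fell: Mcm6 and Mcm5, of the replicative helicase, by 1.39 and 1.08, and Pold2 and Rfc5 by 0.75 and 0.73. No replication gene passed with any array left out. Polr3k and Polr3g, of RNA polymerase III, fell by 0.70 and 0.78, and the initiation factors Eif4b and Eif4a2 rose by 0.81 and 0.60. No gene of 45 cytosolic ribosomal proteins and none of 19 aminoacyl-tRNA synthetases passed in limma, with 4 and 6 at an unadjusted p under 0.05. Host genes of small nucleolar RNAs, a set chosen after their values were seen, had 4 rises and 2 falls among 16, with 14 positive differences. The falls were those of Snhg14, from 5.88 and 6.22 to levels not above background (adjusted p = 0.0202), and of Snhg11, by 1.27 (adjusted p = 0.0084) with -0.05 on its second probe set. Gas5, whose spliced RNA carries a short reading frame start that links its decay to translation, read 10.18 and 10.28 when fed and 11.52 and 11.49 when fasted (1.27, SE 0.12, adjusted p = 0.0031), and 0.57 higher on its unshared probe set (adjusted p = 0.231). Zfas1 read 7.95 and 7.89 when fed and 9.25 and 9.08 when fasted (1.25, adjusted p = 0.0039). Both rises were stable, and those of Snhg12 (1.09) and Snhg4 (at least 1.07) were not, with adjusted p values up to 0.0531 and 0.199.

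Markers of the other liver cells were followed because whole liver was measured. All 7 hepatocyte markers were above background and none passed. The 8 Kupffer cell markers all had positive differences, with a median of 0.36 and none past the test (3 at an unadjusted p under 0.05). Their summed level on the log2 scale was 12.54 and 12.80 on the fed arrays and 12.97 and 13.02 on the fasted arrays. Ccl6, a chemokine of myeloid cells, rose by 1.26 from 7.52 on both fed arrays to 8.76 and 8.80, and Cxcl13, which attracts B cells, by 1.10, while Ccl9 fell by 0.82. The part of Kupffer cells in these changes was not tested. Lyve1, a marker of sinusoidal endothelium, rose by 1.58 from 6.86 and 7.06 to 8.62 and 8.46, and the other 6 endothelial markers did not pass.

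Among 7 stellate cell and fibroblast markers Lrat, Col3a1 and Col1a1 were called lower and Dcn, or decorin, rose (0.61). Col1a1 was not shown to be above background in either state. The median of the 7 was -0.65, and 2 of 7 differences were positive. Their summed level on the log2 scale, which includes Dcn at 11.24 and 11.25 when fed and 11.87 and 11.84 when fasted, was 12.3 and 12.2 when fed and 12.4 and 12.3 when fasted. Col3a1 read 9.73 and 9.51 when fed and 7.34 and 7.26 when fasted, a difference of -2.32 (SE 0.34, adjusted p = 0.0125). Its unshared probe set was not above background and gives no check of this size. Of 42 collagen genes 4 fell, and Col27a1 did so stably, from 9.70 and 9.89 to 8.25 and 8.29 (-1.53, SE 0.14, adjusted p = 0.00308). Cela1, an elastase on the list of exocrine pancreas markers, fell by 1.45, a stable change. Of the other members measured, Prss2 differed by 0.31 without passing and Cpa1 was not above background. Olfactory receptors, which liver is not known to use, gave 0 of 39 in limma, and also 0 at an unadjusted p under 0.05. Only 2 of the 39 were above background in either state, so their level left little room for a call.

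Few changed genes lay side by side on the chromosomes. Of 910 changed genes with a known position, 99 (10.9%) had a neighbouring measured gene that changed in the same direction and 28 (3.08%) one that changed in the other, and 18 of the 99 shared the first letters of their names with it. Among genes that did not change, 9.57% had a neighbour that changed in either direction. That share is not a baseline for the 10.9%, which counts the same direction only. Of 6 runs of at least 3 adjacent genes, the falling ones were the Slc22a, Hsd3b and Gstm clusters. The rising ones were Abcb4, Crot and Tmem243 on chromosome 5, Elmod3, Retsat and Tgoln1 on chromosome 6, and Mapk1ip1, Ppp2r2d and Bnip3 on chromosome 7. On the mean over their probe sets Crot, Tmem243 and Ppp2r2d did not pass, with adjusted p values of 0.113, 0.134 and 0.0889. Tgoln1, a trans-Golgi protein, read 11.37 and 11.35 when fed and 12.31 on both fasted arrays (0.95, SE 0.11, adjusted p = 0.00623).

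**Figure D5:**
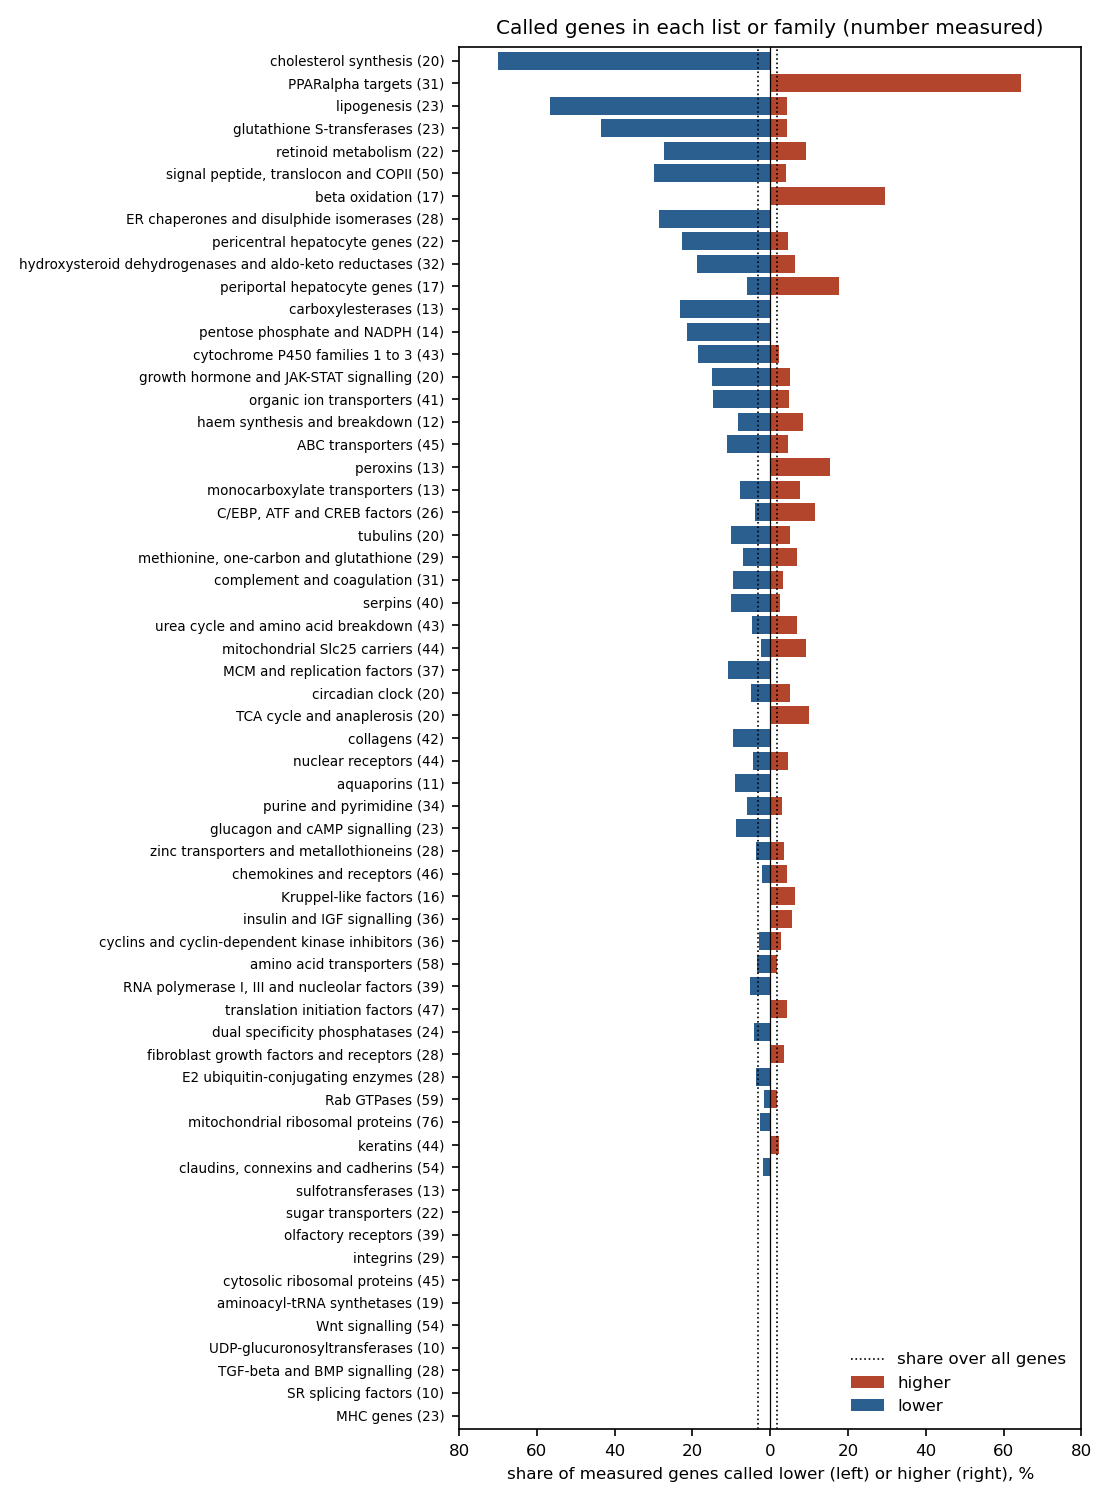
Share of the measured genes in each list or family of at least 10 genes that fell (left, blue) or rose (right, red), with the number measured in brackets. Dotted lines mark the shares over all genes, 3.15% lower and 1.87% higher. Lists differ in level, and the share changed was 0.110% in the dimmest class of genes and 10.96% in the brightest. The 4 lipid lists are plotted for comparison, and glutathione S-transferases stand highest among the others at 47.8% changed.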

How the data were processed

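The values analysed are the log2 probe set levels deposited by the authors, made with RMA, which the submitters' processing notes name without a version. Per the labels' protocols, biotinylated cRNA was made from 10 ug of total liver RNA. Of 45101 probe sets, 64 were controls and 34945 had a single gene symbol. The brightest of these per gene, by the mean over all 6 arrays, gave 18193 genes, of which 18032 matched RefSeq by gene ID. The highest median of the 6 arrays set the level, 5.64, under which a probe set was not shown to be above background. The number of arrays, 2 a group, limits the precision, and p-values measure the spread between these samples.

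Group means of all 6 arrays were fitted with limma 3.58.1 (R 4.3.3), with the contrast fasted wild-type minus fed wild-type and Benjamini-Hochberg adjustment. The fit had 3 residual and 4.24 prior degrees of freedom. The procedure was tested on simulated data, in which 100 brighter genes were changed 2-fold and 100 others 4-fold. It recovered 92% and 100% of them, with 24 false calls among the unchanged genes. The noise was normal with the same spread on all arrays of a gene, so it did not carry the wider gap between the fed arrays. Replicate numbers were not taken to pair the samples, since the replicate differences of fed and fasted wild-type correlated at r = 0.045 across genes. For fasted wild-type and fasted Cnot3+/-, which share the estimate of spread, r was 0.454, and for fed wild-type and fasted Cnot3+/- it was -0.009.

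The members and gene lists were chosen with earlier results of these data known. Genes named are the 15 largest stable rises and falls above background and the 8 largest crossings of the background each way, all outside the 4 lipid lists, up to 6 changed members of each list with the smallest p, the clock genes, the cell type markers, the 10 genes furthest apart between the fed arrays, and runs of at least 3 adjacent changed genes. Further members of the ER lists, and Dhrs4, Gsto1, Gstp3 and host genes of small nucleolar RNAs were named after their values were seen. Genes known by a clone name are counted only. Alternatives were another set of arrays, a replicate block, an intensity trend, other normalisations and centring, a filter on dim genes, other probe set choices, and each wild-type array left out.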

Additional observations from a re-analysis of the deposited data

How the results depend on the processing

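The number of changed genes was 913 (340 higher, 573 lower) and moved by less than 1.5 times under every alternative other than leaving out an array. It was 1033 with the 4 wild-type arrays alone, 1206 with a replicate block (486 higher, 720 lower), 898 with an intensity trend, 1007 after quantile normalisation, 979 after cyclic loess, 1020 with arrays centred on brighter genes, 846 with genes above the median level only, 802 with the mean over probe sets and 800 without shared probe sets. With single arrays left out it ranged from 137 to 458, the rises from 51 to 147, the falls from 84 to 311 and the changes of at least 2-fold from 137 to 372, where a lone array of a group is assumed to vary like the other groups and fewer arrays enter the fit. Of the genes named, the replicate block ended the call of 1, Rrm2 (adjusted p = 0.0524).

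Of 1641 values of the 187 genes named under alternatives other than leaving out an array, 1577 kept direction and side of the threshold, 61 lost the call and 3 changed sign. With an array left out, 388 of 748 lost the call, 8 gained one and 9 changed sign. Of 970 medians of lists under alternatives, 114 moved by more than the spread between replicates. Signs changed only among named genes that did not pass. For a gene that passed, leaving out an array could hardly change the sign. With single arrays left out, Arntl ranged from -0.320 to 0.522, Creld2 from -0.939 to 0.635, Dbp from -0.583 to 0.045, Hsp90b1 from -0.198 to 0.079, Hspa5 from -0.144 to 0.114, Lpin1 from -0.558 to 2.382, Nr1d1 from -0.427 to 0.627 and Zbtb16 from -0.155 to 2.864. Hspa5 was at 0.004 after quantile normalisation and 0.016 with arrays centred on brighter genes, and Hsp90b1 at 0.232 with the mean over probe sets. The cause was not tested.

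Limits are the 2 arrays a group, the spread between the fed arrays, and signal near background, where sizes are bounds. Probe sets shared between transcripts or paralogs can read more than 1 gene. Whether arrays hold pooled mice, and the time of day, are not given in the sources used here.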

Other observations

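Smaller families held further changes, none of them stable. The share changed was 15.4% of peroxins, 11.6% of urea cycle and amino acid genes, 16.7% of haem genes and 8.82% of nucleotide genes. It was 5.02% of all genes and 10.96% of the brightest class. Of 13 peroxins, which build peroxisomes, 2 rose. Pex11a, which divides them, read 11.66 and 11.85 when fed and 12.79 and 12.75 when fasted (1.02, SE 0.12, adjusted p = 0.00646), and Pex16 rose by 0.63, with 0.06 on its unshared probe set. Among 43 genes of the urea cycle and amino acid breakdown, the aminotransferases Got1 and Gpt2 rose by 1.18 and 0.62 beside Asl, while Aldh4a1, of proline breakdown, and Haao, of tryptophan breakdown, fell by 0.83 and 0.73. In haem metabolism Alad, an enzyme of haem synthesis, fell by 0.87 and Hmox1, the haem oxygenase, rose by 0.63. In nucleotide synthesis Cad and Rrm2 fell by 1.03 and 0.98 and Ctps rose by 0.61. Nr3c1, the glucocorticoid receptor, fell by 0.63.

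Tubulins went both ways. Tuba1a read 8.76 and 8.07 when fed and 6.97 and 7.13 when fasted, and Tuba4a fell by 0.78, while Tuba8 rose from 6.57 and 7.02 to 8.13 and 7.81. Of 59 Rab GTPases, regulators of vesicle traffic, Rab30 rose and Rab20 fell (3.39% changed, against 5.02% of all genes). Rab30 read 7.15 and 6.84 when fed and 9.78 and 11.32 when fasted, a difference of 3.55 (SE 0.75, adjusted p = 0.043, up to 0.217 with an array left out), and Rab20 fell by 1.29. Mt1, a metallothionein, read 10.10 and 10.27 when fed and 13.28 and 11.93 when fasted (2.42, adjusted p = 0.0331), and the difference on its unshared probe set was 0.38 (adjusted p = 0.437). The 2 fasted arrays of Rab30 and of Mt1 lay more than 1 log2 unit apart, and neither overlapped the fed arrays.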
